A study of Mus musculus with 6 samples.

Results

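The 9 genes described here encode complement components that the liver makes for the blood: *C3*, *C4b*, *Hc*, *C6*, *C8a*, *C8b*, *C9*, *Cfb* and *Mbl1*. They were taken by gene name from the deposited tables, in which 21528 genes had a value in at least 1 library. All 9 were listed in every library, and all 9 were among the 12225 genes tested.

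The study sequenced liver RNA from wild-type mice and from mice with a changed TRIM24, a RING-domain E3 ubiquitin ligase and chromatin reader. There were 3 wild-type libraries (WT) and 3 libraries of the genotype trim24 C52/55A KI, called TRIM24 C52/55A or knockin below. In the knockin mice Cys52 and Cys55 of the RING domain were replaced by alanine through CRISPR/Cas9, in every cell rather than in hepatocytes alone, and homozygous knockins were compared with WT littermates from matings of heterozygotes. Both groups had strain C57BL/6 in the labels (a C57Bl/6J background in the study's methods), age 5 months, and a high fat diet with 60% fat for 3 months, so that no library shows the liver on another diet. The labels do not give sex. The study describes livers of these genotypes, age and diet in its other assays as from male mice, without naming the sex of the sequenced ones. The labels also do not say whether each library is a separate mouse. The p-values below therefore measure the spread between these libraries. *Trim24* itself does not check the labels, since the knockin replaces codons and leaves the transcript in place. Its log2 fold change was 0.14 (SE 0.19, adjusted p = 0.713 from limma).

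Values are FPKM, fragments scaled to transcript length and library size, which are comparable between genes per length. The steps between low FPKM values put 1 fragment per kilobase at 0.0608 to 0.0645 FPKM in the 6 libraries. These steps were sought only between 0.045 and 0.085, so the values cannot show whether depth was even. If they hold, the smallest member value, *C6* in WT replicate 3, rests on an estimated 1248 fragments. Counting error alone would then give a coefficient of variation of 2.83%. Each library listed 17709 to 17984 genes. Of 12 hepatocyte markers, 11 were listed and tested, with summed levels of 21884 to 22218 FPKM in WT and 21199.8 to 24325 FPKM in knockin livers. *Alb*, the defining hepatocyte transcript, was not listed in any library. Across genes, Spearman's rho was 0.976 to 0.988 between libraries of a genotype and 0.969 to 0.976 between genotypes. Liver was sequenced in bulk, so fewer cells of a type and less RNA per cell cannot be told apart.

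Complement is a cascade of plasma proteins that marks and lyses microbes, and hepatocytes are the main source of most of its soluble parts. Mannose-binding lectin (*Mbl1*) recognises microbial sugars and starts the lectin route, in which C4 (*C4b*) and C2 are cut to form the enzyme that cleaves C3. Factor B (*Cfb*) forms the corresponding enzyme of the alternative route, which amplifies C3 cleavage. C3 (*C3*) is where all routes meet. Cleavage of C5, which the mouse gene *Hc* encodes, opens the terminal route, in which C6, C7, C8 and C9 join C5b to build the membrane attack complex. C8 is a heterotrimer of an alpha chain (*C8a*), a beta chain (*C8b*) and a gamma chain (*C8g*), and C9 then polymerises into the pore.

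The start regions of the 5 terminal genes are shown because these are the members with the larger differences between genotypes. RefSeq promoter windows on GRCm38.p6 were matched by symbol for 7 of the 9 members, with none for *C4b* and *Cfb*. The windows printed are chr4:104766067-104766316 on the plus strand for *C8b*, chr4:104876399-104876648 on the minus strand for *C8a*, chr15:4726960-4727174 on the plus strand for *C6*, chr15:6445096-6445326 on the plus strand for *C9* and chr2:35061439-35061662 on the minus strand for *Hc*. Each ends at the base before the annotated gene start, runs 5′ to 3′ along the gene's strand, and has the motif matches named below in capitals.
C8b: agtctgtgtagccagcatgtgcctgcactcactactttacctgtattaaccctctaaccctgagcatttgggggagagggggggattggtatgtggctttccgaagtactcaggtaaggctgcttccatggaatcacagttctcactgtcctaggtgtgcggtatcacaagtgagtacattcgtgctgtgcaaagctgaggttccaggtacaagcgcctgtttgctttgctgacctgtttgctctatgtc
C8a: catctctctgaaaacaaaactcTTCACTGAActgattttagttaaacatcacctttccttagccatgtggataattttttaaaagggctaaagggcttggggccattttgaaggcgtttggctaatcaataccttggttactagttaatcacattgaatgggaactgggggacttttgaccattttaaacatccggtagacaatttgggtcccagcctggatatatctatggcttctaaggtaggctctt
C6: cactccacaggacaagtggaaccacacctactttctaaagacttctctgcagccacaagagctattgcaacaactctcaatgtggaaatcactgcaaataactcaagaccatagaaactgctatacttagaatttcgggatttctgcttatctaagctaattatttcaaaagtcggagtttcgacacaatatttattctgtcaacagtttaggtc
C9: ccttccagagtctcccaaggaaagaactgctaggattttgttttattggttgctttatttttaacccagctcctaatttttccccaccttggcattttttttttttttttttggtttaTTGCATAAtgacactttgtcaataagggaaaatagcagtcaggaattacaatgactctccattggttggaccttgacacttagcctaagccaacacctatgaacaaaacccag
Hc: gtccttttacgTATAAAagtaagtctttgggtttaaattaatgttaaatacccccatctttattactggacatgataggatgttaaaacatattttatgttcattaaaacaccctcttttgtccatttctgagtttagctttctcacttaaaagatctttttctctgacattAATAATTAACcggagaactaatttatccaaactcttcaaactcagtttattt

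The 250 bases before each RefSeq start were searched on both strands for 5 motifs of liver promoters, and no matches overlapped. *Hc* held the TATA box letters TATAAA, which 12.3% of 32536 promoter windows hold, and a match of the HNF1 motif on the reverse strand, the motif of 0.375% of windows. *C8a* held the STAT letters TTCNNNGAA, present in 7.04% of windows. *C9* and *C3* each held the C/EBP letters TTGCNNAA, present in 9.57% of windows. The HNF4 letters CAAAGNNCA, present in 5.51% of windows, were in none of the 7. No match of any of the 5 motifs was found for *C8b*, *C6* and *Mbl1*, which says only that these letters are not in those windows.

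All members called were genes of the terminal route. Of the 5 terminal genes, *C8b*, *C6*, *C9* and *Hc* rose in the TRIM24 C52/55A liver, by 3.04, 2.94, 1.75 and 1.56 times in mean FPKM. *C8a* had a ratio of means of 1.64 and did not pass the test. Of the 4 genes of the activation steps, *C3*, *C4b*, *Cfb* and *Mbl1*, 0 passed in either direction, and 0 had an unadjusted p under 0.05. In all, 4 of 9 members were called higher and 0 lower, by limma with an adjusted p under 0.05. Of all 12225 genes tested, 1.64% were called higher, 6.09% lower and 7.72% in either direction. The median log2 fold change was 0.63 over the 9 members, 0.80 over the 5 terminal genes and 0.11 over the 4 activation genes, beside -0.08 over all genes tested. Every fold change in log2 is a difference of log2(FPKM + 1).

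**Figure D1:**
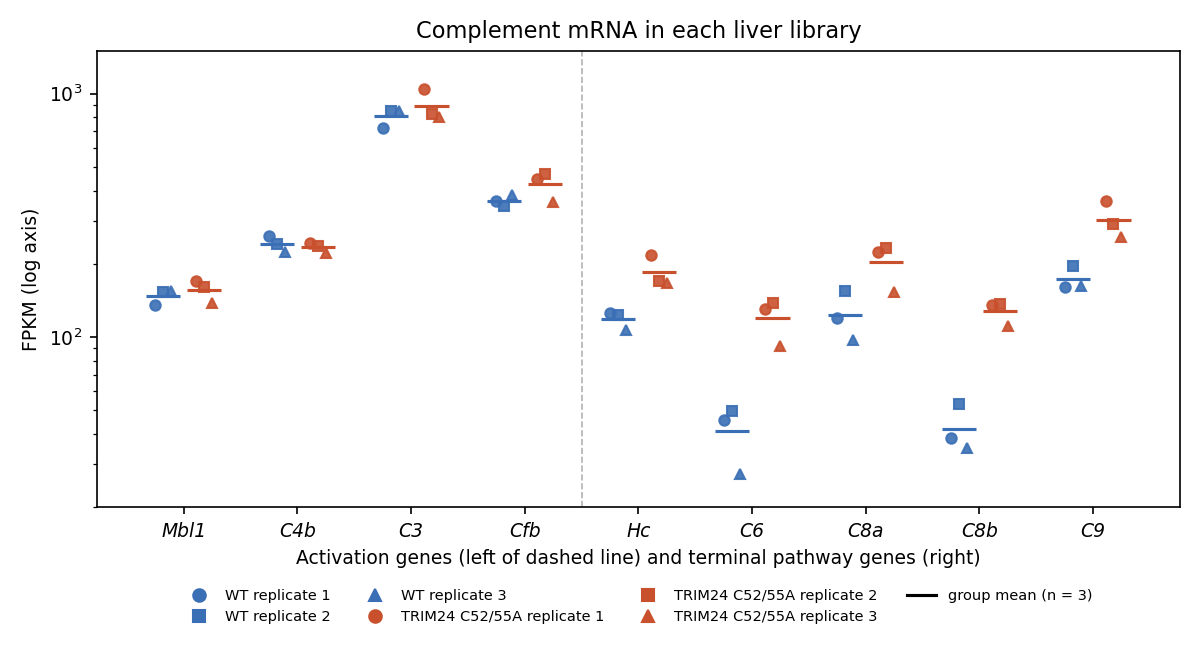
FPKM (log axis) of the 9 complement genes in each of the 6 liver libraries, WT in blue and TRIM24 C52/55A in red, with circles, squares and triangles for replicates 1, 2 and 3 and horizontal bars for the group means (n = 3). To the right of the dashed line, *Hc*, *C6*, *C8b* and *C9* have every TRIM24 C52/55A library above every WT library. To the left, the groups of *Mbl1*, *C4b*, *C3* and *Cfb* overlap.

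*C8b* (chr4:104766317-104804548, plus strand) encodes the beta chain of C8, through which C8 binds the growing complex. It was at 38.4, 52.9 and 35.0 FPKM in WT replicates 1, 2 and 3, and at 136, 137 and 112 FPKM in TRIM24 C52/55A replicates 1, 2 and 3. The lowest TRIM24 C52/55A library was above the highest WT library by more than the whole WT range. Means were 42.1 ± 9.52 and 128 ± 14.4 FPKM (SD, n = 3 each). The log2 fold change was 1.60 (SE 0.15, 95% confidence interval 1.24 to 1.95, adjusted p = 0.00152 from limma), the 38th highest of the 12225 genes tested. The exact two-sided permutation test of 3 against 3 gave p = 0.1, the smallest it can give.

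*C6* (chr15:4727175-4815456, plus strand) encodes the protein that binds C5b to begin the membrane attack complex. Its levels were 45.8, 49.8 and 27.3 FPKM in WT and 131, 138 and 92.0 FPKM in knockin libraries. The groups did not overlap, and replicate 3 was the lowest library of each genotype. Means were 41.0 ± 12.0 and 120 ± 24.8 FPKM (SD, n = 3 each). The log2 fold change was 1.55 (SE 0.23, 95% confidence interval 1.02 to 2.09, adjusted p = 0.00885 from limma), the 40th highest of all tested, and the exact permutation p was 0.1. *C6* varied most of the members between WT libraries, with a coefficient of variation of 29.2%, against 22.6% for *C8b*. Both genes had an adjusted p under 0.05 in all 15 alternative analyses, with log2 fold changes of 1.48 to 1.77 for *C8b* and 1.29 to 1.73 for *C6*.

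*C9* (chr15:6445327-6498751, plus strand), whose product forms the pore, was the most abundant of the terminal members. It was at 161, 196 and 162 FPKM in WT and 362, 290 and 257 FPKM in knockin libraries. No library of one genotype entered the range of the other. Means were 173 ± 19.8 and 303 ± 53.6 FPKM (SD, n = 3 each), with a log2 fold change of 0.80 (SE 0.14, 95% confidence interval 0.49 to 1.11, adjusted p = 0.0136 from limma). *Hc* (chr2:34983331-35061438, minus strand) encodes C5, the source of the chemoattractant C5a and of C5b. Its levels were 125, 123 and 107 FPKM in WT and 217, 170 and 166 FPKM in knockin libraries. The groups were again separate, with a gap from 125 to 166 FPKM between them. Means were 118 ± 10.03 and 185 ± 28.3 FPKM (SD, n = 3 each), with a log2 fold change of 0.63 (SE 0.12, 95% confidence interval 0.36 to 0.90, adjusted p = 0.0189 from limma).

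The calls for *C9* and *Hc* were lost when some single WT libraries were left out. Without WT replicate 1 the adjusted p from limma was 0.0590 for *C9* and 0.0557 for *Hc*, and without WT replicate 3 it was 0.0599 and 0.0740. *Hc* also lost its call without WT replicate 2, at an adjusted p of 0.0518 from limma. The log2 fold changes under these omissions were 0.75 for *C9* and 0.56 to 0.67 for *Hc*. The count of members called was 2 without WT replicate 1 and 2 without WT replicate 3. Over all genes, the number called higher also dropped, from 200 to 95 and 88 under these 2 omissions.

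*C8a* (chr4:104815679-104876398, minus strand) encodes the alpha chain of C8 and lies 11.1 kb from *C8b*, with the 2 genes converging. It was at 119, 154 and 97.1 FPKM in WT and 223, 233 and 153 FPKM in knockin libraries. WT replicate 2 and TRIM24 C52/55A replicate 3 overlapped narrowly, and the other libraries fell on either side of them. Means were 124 ± 28.6 and 203 ± 43.5 FPKM (SD, n = 3 each), with a log2 fold change of 0.71 (SE 0.20, 95% confidence interval 0.26 to 1.17). The adjusted p was 0.0688 from limma and the exact permutation p was 0.2, so *C8a* was not called. Without TRIM24 C52/55A replicate 3 its adjusted p was 0.0255 from limma, with a log2 fold change of 0.90.

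Of the 9 members, the groups of *C8b*, *C6*, *C9* and *Hc* did not overlap, with TRIM24 C52/55A above WT. This held for 6.31% of all genes tested, and 28.9% of them did not overlap in either direction. A permutation p of 0.1 therefore was common among the tested genes.

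Among the activation genes, *C3* (chr17:57203970-57228136, minus strand) was the most abundant member in all 6 libraries. It was at 723, 845 and 849 FPKM in WT and 1044, 824 and 803 FPKM in knockin libraries. TRIM24 C52/55A replicate 1 was the highest, and its other 2 replicates lay inside the WT range. Means were 806 ± 71.5 and 891 ± 134 FPKM (SD, n = 3 each), with a log2 fold change of 0.14 (SE 0.12, 95% confidence interval -0.14 to 0.41, adjusted p = 0.548 from limma). The interval leaves out the log2 fold changes measured for *C8b*, *C6*, *C9*, *C8a* and *Hc*.

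*Cfb*, encoding factor B, was second in all 6 libraries. Its levels were 361, 346 and 383 FPKM in WT and 445, 468 and 360 FPKM in knockin libraries. TRIM24 C52/55A replicate 3 fell within the WT range and the other 2 lay above it. Means were 363 ± 18.7 and 424 ± 56.9 FPKM (SD, n = 3 each), with a log2 fold change of 0.22 (SE 0.11, 95% confidence interval -0.03 to 0.46, adjusted p = 0.278 from limma). The files give *Cfb* and its neighbour *C2* the same interval, chr17:34856374-34898265, although the annotation ends *Cfb* at base 34862518 and starts *C2* 85 bases further on. How fragments from that stretch were divided between the 2 genes was not tested.

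*C4b* (chr17:34728380-34743882, minus strand), encoding C4, was at 260, 240 and 224 FPKM in WT and 244, 237 and 222 FPKM in knockin libraries. These were the closest group means of the 9 members, 242 ± 18.2 and 234 ± 11.0 FPKM (SD, n = 3 each). The log2 fold change was -0.04 (SE 0.08, 95% confidence interval -0.23 to 0.15, adjusted p = 0.809 from limma). Its sign turned with the scaling, to 0.06 with median-of-ratios scaling and 0.12 with quantile normalization. *Mbl1* (chr14:41151456-41158959, plus strand) was at 135, 153 and 155 FPKM in WT and 169, 161 and 138 FPKM in knockin libraries, so the groups overlapped. Means were 148 ± 11.2 and 156 ± 16.0 FPKM (SD, n = 3 each), with a log2 fold change of 0.08 (SE 0.10, 95% confidence interval -0.15 to 0.31, adjusted p = 0.691 from limma).

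The order of the members by level changed below *Cfb*. In WT livers *C4b* ranked above *C9* in each library, and in knockin livers *C9* ranked above *C4b* in each library. *Mbl1* went from rank 5 by mean level in WT to rank 7 in knockin livers, below *C8a* and *Hc*. *C8b* and *C6* stayed in the lowest 2 ranks in every library, and their ranges overlapped in both genotypes. Neighbours whose ranges also overlapped were *Mbl1* with *C8a* and *C8a* with *Hc* in WT. In knockin livers these were *Cfb* with *C9*, *C4b* with *C8a*, *C8a* with *Hc* and *Hc* with *Mbl1*.

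The terminal genes took a larger share of the members' summed FPKM in the TRIM24 C52/55A liver. This share and the ratios below were chosen after the values were seen. The share was 24.9%, 26.7% and 21.0% in WT and 36.0%, 36.4% and 33.9% in knockin libraries, with means of 24.2 ± 2.89% and 35.4 ± 1.37% (SD, n = 3 each). The summed terminal level was 498 ± 73.8 FPKM in WT and 939 ± 147 FPKM in knockin libraries, and the groups did not overlap. With *C7* and *C8g*, the other terminal-route genes, the terminal sum was 854 ± 64.6 FPKM in WT and 1256 ± 144 FPKM in knockin libraries (SD, n = 3 each), and the share 35.4 ± 1.92% and 42.4 ± 0.588%, again without overlap. The summed activation level was 1558 ± 69.7 and 1705 ± 190 FPKM (SD, n = 3 each), with overlapping groups.

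Transcripts of the 3 chains of C8 did not keep 1 ratio. *C8a* over *C8b* was 3.11, 2.91 and 2.78 in WT and 1.64, 1.70 and 1.37 in knockin libraries, means of 2.93 ± 0.167 and 1.57 ± 0.175 (SD, n = 3 each, exact two-sided permutation p = 0.1). The ratio was lower in every knockin library than in every WT library. *C8g*, which encodes the gamma chain, was at 344, 350 and 372 FPKM in WT and 317, 310 and 321 FPKM in knockin libraries. Every TRIM24 C52/55A library was below every WT library, as for 2755 of the 12225 genes tested. The log2 fold change of *C8g* was -0.17 (SE 0.07, unadjusted p = 0.0432, adjusted p = 0.196 from limma, not called). It depended on the scaling, at -0.06 with median-of-ratios scaling, -0.02 with quantile normalization and -0.23 with TPM. *C8g* over *C8b* was 8.95, 6.61 and 10.6 in WT and 2.33, 2.27 and 2.88 in knockin libraries (exact two-sided permutation p = 0.1, n = 3 each). The files' interval of *C8g* is longer than its annotated 3.07 kb, at 6.82 kb.

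**Figure D2:**
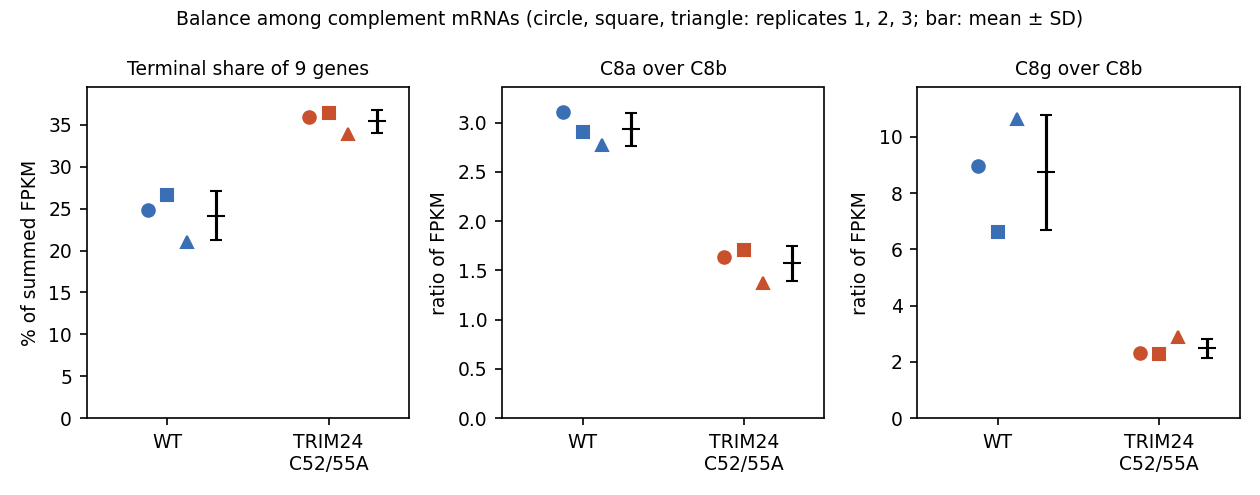
Balance among complement transcripts in each library, with the share of the 5 terminal genes in the summed FPKM of the 9 members (%), the ratio of *C8a* to *C8b* FPKM and the ratio of *C8g* to *C8b* FPKM on axes that start at 0, and bars for mean ± SD (n = 3). The share leaves out *C8g* and *C7*. It lies at 21.0% to 26.7% in WT and 33.9% to 36.4% in knockin livers, and both ratios are lower in every TRIM24 C52/55A library than in every WT library.

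TRIM24 C52/55A replicate 3 was the lowest of its group for 9 of 9 members, while it was the lowest for 31.4% of all genes tested. WT replicate 3 was the lowest of its group for 5 of 9 members and the highest for 3 of 9, against 26.0% and 40.8% of all genes tested. The 5 were *C4b*, *Hc*, *C6*, *C8a* and *C8b*, and the 3 were the activation genes *C3*, *Cfb* and *Mbl1*.

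Of 43 other complement genes, all listed in at least 1 library, 37 were tested, 8 were called higher and 0 lower (15 with an unadjusted p under 0.05). Of all 12225 genes tested, 1.64% were called higher and 6.09% lower, and 2883 had an unadjusted p under 0.05. The median log2 fold change of the 37 genes was 0.01. Of the 17 genes of the initiation and activation steps, 4 were called higher and 0 lower. *C1ra*, encoding a C1r protease of the classical route, rose from 72.6 ± 2.73 to 104 ± 9.95 FPKM (SD, n = 3 each; log2 fold change 0.51, adjusted p = 0.0138 from limma). Its paralog *C1rb* rose from 11.7 ± 0.262 to 16.5 ± 1.70 FPKM (log2 fold change 0.45, adjusted p = 0.0251 from limma). Reads of the *C1r* pair could be split between the copies.

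*C2*, the protease partner of C4, was at 22.5, 19.2 and 21.3 FPKM in WT and 27.8, 36.4 and 29.5 FPKM in knockin libraries, which did not overlap (log2 fold change 0.54, adjusted p = 0.0281 from limma). The *Cfb* to *C2* ratio was 16.06, 17.99 and 17.93 in WT and 16.02, 12.86 and 12.20 in knockin libraries (exact two-sided permutation p = 0.1, n = 3 each). The groups were separated only by the small gap between replicate 1 of each genotype, and the files give both genes the same interval. *C4a*, a near-identical copy of *C4b* that lies 65.2 kb from it, was at 15.3, 14.8 and 11.2 FPKM in WT and 37.1, 24.0 and 35.9 FPKM in knockin libraries. Its log2 fold change was 1.16 (SE 0.18, adjusted p = 0.00964 from limma), beside -0.04 for *C4b*. Because the counting could split fragments between these copies, both values are uncertain. *Mbl2*, *C1s1* and *Masp2*, the most abundant of this list, had log2 fold changes of -0.0026, 0.12 and 0.19 with adjusted p of 0.996, 0.396 and 0.167 (limma). Of the terminal list outside the members, *C7* was near 1 FPKM in both groups, at 1.20 and 1.18 FPKM on average.

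Of 10 tested inhibitors of complement in plasma, 4 were called higher and 0 lower (7 with an unadjusted p under 0.05), beside 1.64% of all genes tested called higher. Not all rose: 2 had negative log2 fold changes, and for 1 every TRIM24 C52/55A library was below every WT library. *Serping1*, the C1 inhibitor, rose from 393 ± 7.27 to 514 ± 21.4 FPKM (SD, n = 3 each; log2 fold change 0.39, adjusted p = 0.0177 from limma). *Vtn*, *Clu* and *Cfi*, the most abundant inhibitors not called, had log2 fold changes of 0.19, 0.00 and 0.20. Of 13 membrane regulators and receptors, 8 were tested and 0 called by limma (1 with an unadjusted p under 0.05). Their most abundant genes *Cd59a*, *Cr1l* and *Vsig4* had log2 fold changes of -0.36, 0.07 and -0.15. *C4a* had an adjusted p under 0.05 in all 15 alternatives, *C1ra* in 12, *Serping1* in 11, and *C1rb* and *C2* in 9. The count of 8 was 2 with any 1 of WT replicate 1, WT replicate 3 and TRIM24 C52/55A replicate 1 left out, and 3 with WT replicate 2 left out.

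**Figure D3:**
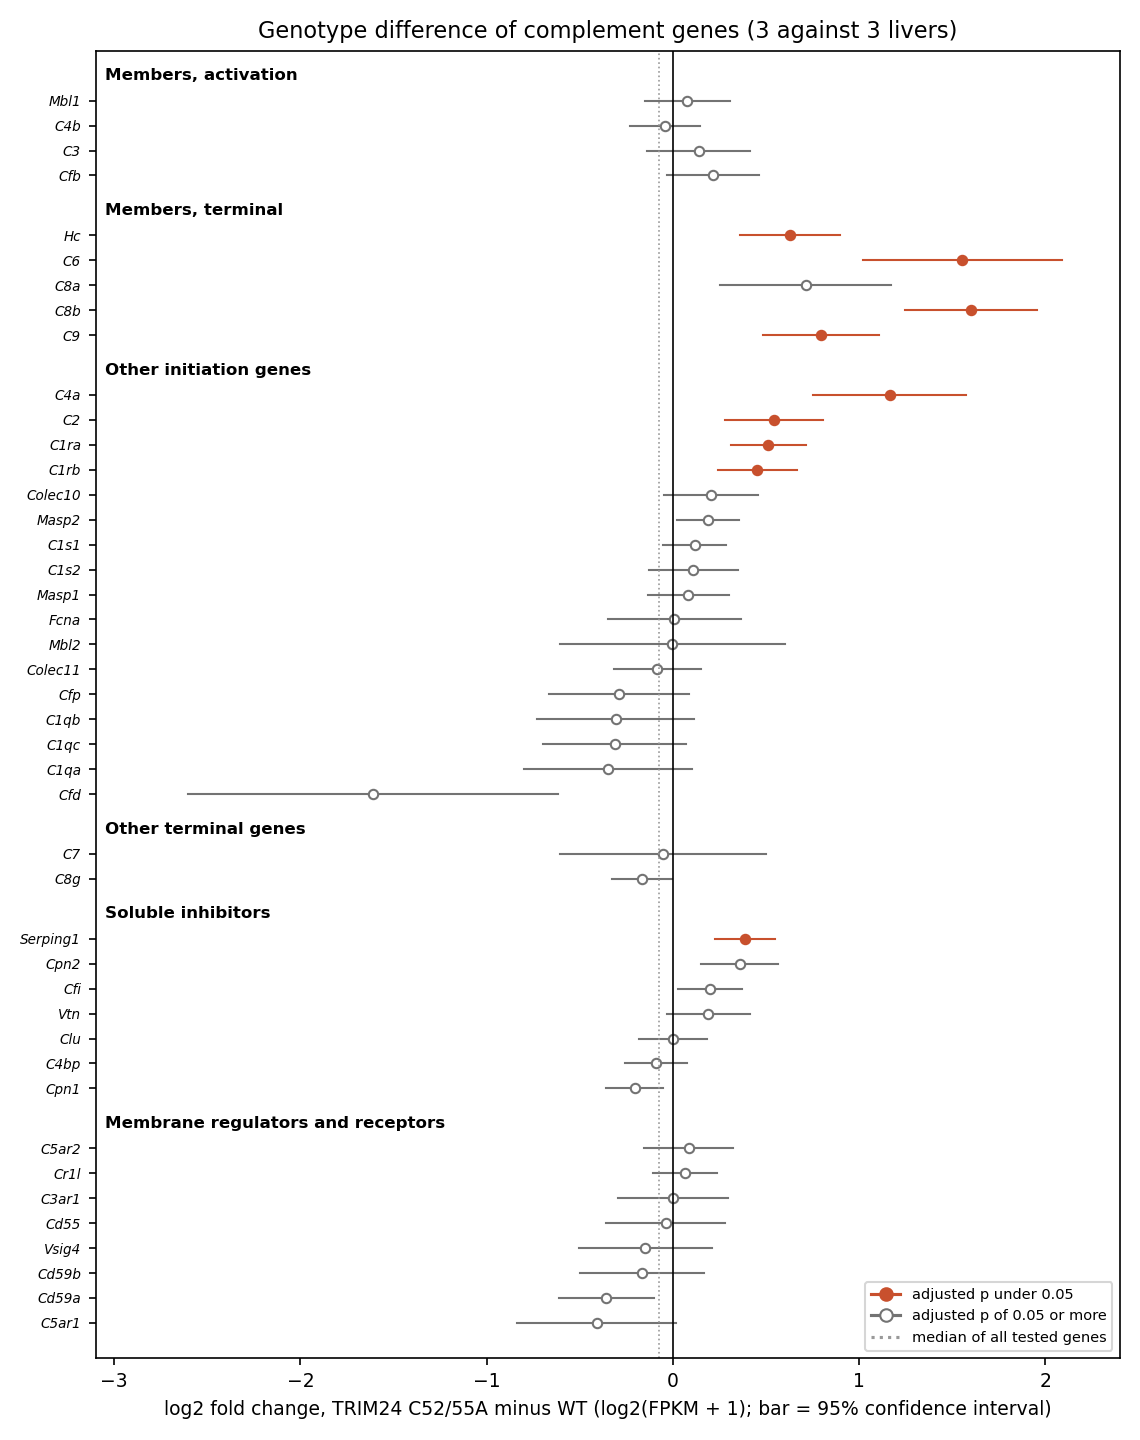
Log2 fold change, TRIM24 C52/55A minus WT, of log2(FPKM + 1) with 95% confidence intervals for the 9 members and the other tested complement genes reported here, grouped by role, with filled red points for an adjusted p under 0.05 (limma) and a dotted line at the median of all tested genes (-0.08). The called genes plotted all lie to the right of 0, led by *C8b* (1.60), *C6* (1.55) and *C4a* (1.16).

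Other liver genes that share regulators or sources with complement are given as measurements beside these results. Of 18 tested acute-phase genes, 0 were called higher and 6 lower. *Orm2*, *Saa2* and *Saa1*, which inflammation induces in hepatocytes, fell, with log2 fold changes of -1.88, -2.47 and -1.80 (adjusted p = 0.000132, 0.000220 and 0.00104 from limma). *C3* and *Cfb*, also known to be induced in inflammation, were not called. Of 21 liver transcription factors, 0 were called higher and 2 lower, near the 6.09% of all genes tested that were lower. They were *Cebpd* and *Cebpb*, with log2 fold changes of -0.69 and -0.94 (adjusted p = 0.0248 and 0.0428 from limma). Of 10 genes of the IL-6 receptor pathway 0 were called by limma (2 with an unadjusted p under 0.05).

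Many of the listed genes with a sex bias in mouse liver differed between genotypes, but the lists were chosen with earlier results of these data known. Of 13 male-biased genes 12 were called higher, beside 1.64% of all genes tested. Their summed level was 5374 to 8422 FPKM in WT and 22579 to 29464 FPKM in knockin libraries. *Mup20* and *Serpina1e*, named after their values were seen, made up most of that sum. *Obp2a*, *Selenbp2* and *Cyp4a12a* rose by 6.60, 4.95 and 1.65 in log2 fold change. Of 14 female-biased genes 8 were tested. Of these, 0 were called higher and 4 lower, beside 6.09% of all genes tested that were lower, and 2 had positive log2 fold changes. The summed level of the list was 55.7 to 125 FPKM in WT and 8.13 to 38.3 FPKM in knockin libraries. *Cyp17a1*, *Acot3* and *Hao2* fell, with log2 fold changes of -2.96, -2.21 and -1.03. The part of this pattern in the *C8b*, *C6*, *C9* and *Hc* results was not tested.

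Cell type markers are given list by list, beside 7.72% of all genes tested that were called in either direction. Of 11 hepatocyte markers, 1 was called higher (*Cps1*, a urea cycle enzyme, log2 fold change 0.63, adjusted p = 0.0281 from limma), and their median was -0.06. All 13 Kupffer cell and macrophage markers had negative log2 fold changes with a median of -0.29, and 0 were called by limma (2 with an unadjusted p under 0.05). Their summed level was 317 to 395 FPKM in WT and 260 to 378 FPKM in knockin libraries, and 4 of them, *C1qa*, *C1qb*, *C1qc* and *Vsig4*, also stand in the complement lists above. Of 8 endothelial markers 1 was called lower (*Lyve1*), with sums of 133 to 143 FPKM in WT and 123 to 133 FPKM in knockin libraries. Of 8 stellate and 5 tested cholangiocyte markers 0 were called by limma (4 and 3 with an unadjusted p under 0.05). The stellate sums were 117 to 129 FPKM in WT and 109 to 142 FPKM in knockin libraries, and the cholangiocyte sums were 29.0 to 54.3 and 22.4 to 34.6 FPKM.

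Of 8 tested adipocyte markers 1 was called lower (*Cidec*, log2 fold change -2.36, adjusted p = 0.0286 from limma). *Cidec* was at 25.2, 9.94 and 16.4 FPKM in WT and 0.663, 6.12 and 2.12 FPKM in knockin libraries. Which cells its transcript came from was not tested. The list's sums, 1924 to 2296 FPKM in WT and 1512 to 2149.7 FPKM in knockin libraries, are mostly *Car3*. Without *Car3* they were 49.5, 38.7 and 37.1 FPKM in WT and 12.0, 75.5 and 14.6 FPKM in knockin libraries, highest in TRIM24 C52/55A replicate 2, which had the lowest sum with *Car3*. *Cfd*, which encodes complement factor D of the alternative route and is known from adipocytes, was at 4.17, 8.62 and 3.10 FPKM in WT and 0.112, 2.54 and 0.821 FPKM in knockin libraries. Its groups did not overlap, and its log2 fold change was -1.61 (SE 0.43, adjusted p = 0.0617 from limma, not called). *Adipoq*, a defining adipocyte transcript named, like *Car3*, after its values were seen, did not exceed 0.127 FPKM in 5 libraries and reached 4.55 FPKM in TRIM24 C52/55A replicate 2. Of 2 tested neutrophil markers 0 were called by limma (1 with an unadjusted p under 0.05), with sums of 4.90 to 11.8 FPKM in WT and 2.11 to 8.08 FPKM in knockin libraries. Of 3 lymphocyte markers 1 was called higher (*Cd4*, log2 fold change 1.11), with sums of 4.04 to 5.76 FPKM in WT and 5.28 to 6.02 FPKM in knockin libraries. The part of these cell types in the members' results was not tested.

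The 3 tested genes whose pattern over the 6 libraries was most like that of *C8b* were *Ces3b*, *Egfr* and *Mup16*, by the mean absolute difference of centred log2(FPKM + 1). The differences were 0.136, 0.138 and 0.168, and the libraries shared are the same 6. *Egfr*, encoding the epidermal growth factor receptor, was at 19.4, 29.0 and 15.6 FPKM in WT and 90.9, 66.4 and 55.6 FPKM in knockin libraries. *Ces3b*, a liver carboxylesterase, was at 69.3, 95.1 and 61.2 FPKM in WT and 205, 205 and 242 FPKM in knockin libraries. Within the knockin group the order differed, since replicate 3 was the lowest library for *C8b* and *Egfr* and the highest for *Ces3b* and *Mup16*. *Mup16* belongs to the major urinary proteins, near-identical copies among which its value is uncertain.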

How the data were processed

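Liver RNA was sequenced in 3 WT and 3 TRIM24 C52/55A libraries. The authors deposited FPKM per gene and library, and each table lists genes above 0. A gene missing from a table was set to 0 for that library, which need not be its true level, since *Alb* is missing from all 6 liver tables. The 9 members are listed in every library. The submitters' processing notes name bcl2fastq, Salmon 0.14.0, DESeq2 1.30.0 and the build GRCm38, with no role given, and the tool behind the FPKM is not given in the sources used here. FPKM are not counts, so no count model was fitted. Values were transformed to log2(FPKM + 1), genes were kept from a mean of 0.5 FPKM upwards, and limma 3.58.1 (R 4.3.3) was fitted with genotype as the factor, eBayes with a mean-variance trend, two-sided, with Benjamini-Hochberg adjustment over 12225 genes and a threshold of 0.05. Single values were also compared with exact two-sided permutation tests (scipy 1.17.1), which cannot go below 0.1 for 3 against 3. Depth was estimated from the steps between low FPKM values of genes with a transcript of at least 2 kb. The steps were sought only in a fixed range, 0.045 to 0.085 FPKM for 1 kilobase, so the estimate is approximate and cannot compare libraries. Gene positions come from the files and the GENCODE annotation of GRCm38, and promoter sequences from RefSeq. The fit was tested on simulated data of 12225 genes, in which 90% of 100 genes changed 2-fold and 99% of 100 changed 4-fold were called in the right direction, with 3 calls among unchanged genes.

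The members, the other complement lists and the lists of acute-phase, transcription factor, IL-6 receptor pathway, sex-biased and cell type marker genes were chosen with earlier results of these data known. Named were the 9 members, other complement genes with an adjusted p under 0.05 and up to 3 per list with the highest mean FPKM, up to 3 per further list with the smallest adjusted p, and the 3 genes most like the member with the largest log2 fold change. Alternatives were a pseudocount of 0.1, a minimum mean of 1 FPKM or no minimum, TPM, median-of-ratios scaling, quantile normalization, eBayes with no trend or robust, a replicate block, and leaving out each library. The authors' own lists of differential genes were not used. Some genes that this rule would name are counted in their list and not reported singly here.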

Additional observations from a re-analysis of the deposited data

How the results depend on the processing

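Each result was recomputed under 15 alternatives, of which 6 left out 1 library. *C8b* and *C6* had an adjusted p under 0.05 (limma) in all 15, *C9* in 12, *Hc* in 11 and *C8a* in 2, and *C3*, *C4b*, *Cfb* and *Mbl1* in none. Of 9 members, 4 were called higher in the main analysis, 2 with no filter on low FPKM, and 2 to 5 with a library left out (2 without WT replicate 1 or WT replicate 3, 5 where TRIM24 C52/55A replicate 3 was omitted). With no filter the adjusted p was 0.0565 for *C9* and 0.0654 for *Hc* (limma), where 21528 genes were tested. The members called lower were 0 in every alternative. Of the other complement genes, 8 were called higher, against 4 with no filter and 2 to 8 with a library left out. The number called lower was 0, against 3 with TPM and 0 to 4 with a library left out, the 4 where TRIM24 C52/55A replicate 2 was omitted. Of all genes 944 were called, 200 higher and 744 lower, against 347 with no filter, 1555 with TPM (197 higher and 1358 lower) and 294 to 1280 with a library left out, 1280 where TRIM24 C52/55A replicate 2 was omitted. Median-of-ratios scaling gave 250 higher and 406 lower, quantile normalization gave 255 and 378, and the median of all genes moved from -0.08 to 0.01 with either. The log2 fold change of *C4b* turned from -0.04 to 0.060 under median-of-ratios scaling and 0.12 under quantile normalization, and lay at -0.096 to 0.013 with a library left out. That of *C7* turned from -0.05 to 0.0044 with median-of-ratios scaling, and lay at -0.34 to 0.11 with a library left out. The cause of these changes was not tested.

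Across all tested genes, the replicate numbers showed no pairing of the libraries. Deviations of same-numbered libraries from their group means correlated at -0.12, -0.10 and 0.00. Whether same-numbered libraries are paired in a part of the genes was not tested. With a replicate block, 5 members, 4 other complement genes higher and 1 lower, and 578 of all genes were called, and *C8a* had an adjusted p of 0.0128 (limma).

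The depth estimated from FPKM steps gives no interval for single values, 3 libraries per group limit every test, and the protein level was not analysed here.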
